A study of Arabidopsis thaliana with 14 samples.

Results

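The comparison described here is the difference between the stress responses of a transgenic Arabidopsis line and of wild type, that is, the response of the line to low water potential minus the response of wild type. It uses all 14 arrays of the series, assigned to 4 groups by their titles, and covers 18308 genes. Wild-type Col-0 seedlings and seedlings of a line in the Col-0 background that carries 35S:YFP-AFL1, called 35S-AFL1 in the titles, were grown for 7 days on agar plates under continuous light. Seedlings of both genotypes were transferred to new control medium or to medium with polyethylene glycol that held the water potential at -1.2 MPa, and RNA of the whole seedling was taken 10 h later. Each treatment had 4 wild-type arrays and 3 arrays of the transgenic line. The labels do not say how many independent lines were used, nor whether replicates came from separate plantings, so the p-values cover the spread among these arrays alone, and that spread may be technical.

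Low water potential is the state in which a plant's surroundings hold water more tightly than its tissues, as in dry soil. Seedlings answer it by making abscisic acid (ABA), the hormone that switches on genes for protective proteins and compatible solutes such as proline, while transcripts for cell expansion, cell division and photosynthesis decline. AFL1 (At14a-like 1, AT3G28270) belongs to a family of proteins with a region resembling animal integrins, and the viral 35S promoter drives a transgene strongly in most plant cells. The fusion to a yellow fluorescent protein lets the protein be seen in the cell.

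Values are log2 of the processed spot signal minus the 75th percentile of the same array, so that 0 means a signal equal to that percentile and a difference of 1 means 2-fold. A response is the stress mean minus the control mean, and the difference of responses is positive where the transgenic line had the higher response. The 75th percentile of the spot signal was 796.2 on the dimmest array and 1591 on the brightest, 59.47% to 66.96% of spots stood well above background, and saturation was found in 0 spots. Across genes, the correlation between arrays within a group was 0.936 to 0.989. All arrays of the transgenic line lay on slides 4 and 5, the 3 control arrays on slide 4 and the 3 stress arrays on slide 5. Each of these slides held 1 wild-type array, replicate 1 of the same treatment, and the other 6 wild-type arrays lay on slides 1 to 3. A difference of responses with slide as a block therefore rests on wild-type replicate 1 alone, and it is given beside the value from all arrays for the genes named. For the main counts and some genes and lists the value without the wild-type arrays of slides 4 and 5 is given too. In limma's array weights, which fall as an array departs from its group, wild-type replicate 1 had 0.401 in control and 0.181 under stress, and the other arrays lay between 0.599 and 2.53.

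No gene passed the adjusted threshold for a difference of responses in limma. The count was 0 of 18308 genes (0.0%) at an adjusted p under 0.05, and the smallest adjusted p was 0.0839. At an unadjusted p under 0.05 the count was 1782 genes (9.73%), of which 734 (4.01%) had the higher response in the transgenic line and 1048 (5.72%) the lower. The median difference over all genes was -0.01, its median size was 0.228, and the median half-width of its 95% interval was 0.558. Without wild-type stress replicate 1 the count of genes past the adjusted threshold was 754, without wild-type control replicate 1 it was 43, and without both it was 1173. The slide block gave 20 genes (0.109%), and 1984 genes with an unadjusted p under 0.05 over both directions. Leaving out stress replicate 1 of the transgenic line gave 1 gene. Responses of single arrays did not overlap between the genotypes for 3565 genes (19.5%).

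The stress response itself was broad in both genotypes. In wild type 11736 genes (64.1%) passed the adjusted threshold and in the transgenic line 11592 (63.3%). A common response was estimated with weights of 4/7 on wild type and 3/7 on the transgenic line, and 13592 genes (74.2%) passed for it. The weighting makes it uncorrelated with the difference of responses where the spread of the arrays is equal. Genes with an adjusted p under 0.05 and at least a 2-fold common response were taken as stress-responsive. There were 6488 of them (35.4%), 2748 that rose (15.0%) and 3740 that fell (20.4%). Among stress-responsive genes 1087 (16.8%) had an unadjusted p under 0.05 for the difference of responses, against 695 of the 11820 other genes (5.88%). Under the slide block these shares were 14.5% and 8.83%, and without the wild-type arrays of slides 4 and 5 they were 31.6% and 16.4%.

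Most of these stress-responsive genes had the larger response in the transgenic line. Of the 2748 genes that rose, 347 (12.6%) had the larger rise there and 46 (1.67%) the smaller rise. Of the 3740 that fell, 632 (16.9%) had the deeper fall in the transgenic line and 62 (1.66%) the shallower one. These counts are at an unadjusted p under 0.05. The common response and the difference are read from the same arrays, so the counts describe these arrays. Blocking on slide gave counts of 297, 39, 462 and 142 in the same order, and leaving out the wild-type arrays of slides 4 and 5 gave 611, 151, 1103 and 184.

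The groups differed in which treatment carried the difference. For genes with the larger rise, the median level in the transgenic line lay below wild type in control by 0.39 on the log2 scale (a genotype difference of -0.39) and above it under stress by 0.42. For genes with the deeper fall, the genotype difference had a median of 0.19 in control and -0.68 under stress. Median differences of responses were 0.86 for the larger rises and -0.91 for the deeper falls, and with slide as a block they were 0.50 and -0.54. The sign was the same with slide as a block for 321 of the 347 larger rises and 563 of the 632 deeper falls. It was the same for 1607 of all 1782 genes with an unadjusted p under 0.05. Both estimates share the arrays of the line and wild-type replicate 1, so a common sign is partly built in. In whole seedlings, fewer cells of a type and less RNA per cell cannot be told apart.

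**Figure D1:**
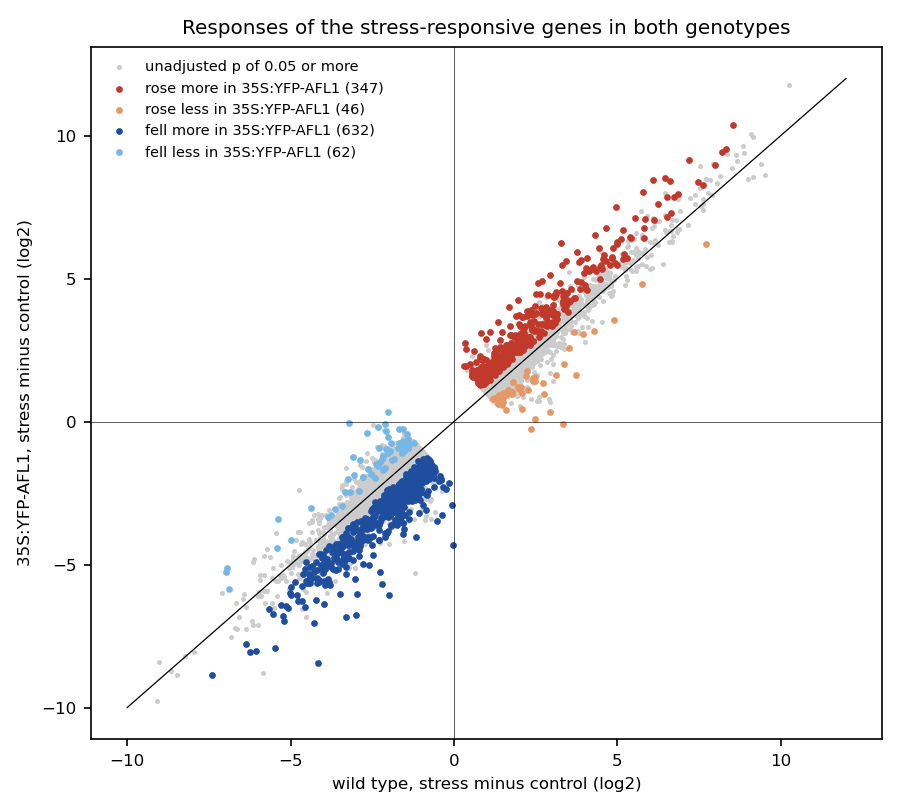
Stress response in wild type (x axis) against that in 35S:YFP-AFL1 (y axis), both as log2 stress minus control, for the 6488 stress-responsive genes. Coloured points are the 347, 46, 632 and 62 genes with an unadjusted p under 0.05 for the difference of responses, grey points are the others, and the diagonal marks equal responses.

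AFL1, the gene carried by the transgene, was among the genes with the smaller rise. Its level was 0.66, 0.04, -0.41 and -0.55 in wild-type control replicates 1 to 4 and 3.47, 3.79, 3.33 and 4.08 under stress. In the line it was 2.45, 2.51 and 2.08 in control and 4.05, 4.08 and 3.82 under stress. Every control array of the transgenic line thus lay above every wild-type control array, whereas the stress arrays of the genotypes overlapped. AFL1 rose by 3.73 in wild type and by 1.64 in the transgenic line, a difference of responses of -2.09 (SE 0.37, 95% interval -2.89 to -1.29, unadjusted p = 8.19e-05, adjusted p = 0.155). The other probes of the gene gave -2.13 and -1.77. With slide as a block the value was -1.17 (adjusted p = 0.390), and without the wild-type arrays of slides 4 and 5 it was -2.40 (adjusted p = 0.00127). Whether the probes read the native transcript, the transgene's transcript or both was not tested.

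Its relative AT14A and the proteins listed as AFL1 partners gave no clear difference of responses. AT14A differed by -0.57 (95% interval -1.26 to 0.12), and by 0.39 with slide as a block. PDIL1-1, a protein disulphide isomerase of the endoplasmic reticulum, differed by 0.53 (95% interval -0.08 to 1.13), and NAI2, which organises the bodies that bud from that compartment in crucifers, by 0.36 (95% interval -0.74 to 1.46). With slide as a block PDIL1-1 was at -0.03 and NAI2 at -0.45, and the probes of NAI2 disagreed in sign. The label AT14A refers here to AT3G28290, the copy of this gene with a probe.

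The genes with the larger rise that are named next passed an unadjusted p under 0.01 (522 genes over both directions, 2.85%), were above background in every group on at least 1 array, and kept at least 0.5 times their difference with slide as a block. There were 56 such genes, 28 of them with a symbol, and the 7 with the largest difference are described. They were HCHIB, SDR4, JRG21, ENODL1, UGT73B2, CYP710A1 and EIF4A-2, and none passed the adjusted threshold.

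JRG21, an oxygenase that inactivates jasmonic acid by hydroxylation, had the smallest p of them. Its level was -2.03, -2.15, -2.40 and -2.24 in the wild-type control arrays and 0.60, -0.01, 0.18 and -0.15 under stress, against -2.85, -3.13 and -3.02 and then 0.95, 0.72 and 1.01 in the transgenic line. The genotypes did not overlap in either treatment: the line lay lower in control and higher under stress. The rises were 2.37 and 3.89, a difference of 1.53 (SE 0.24, adjusted p = 0.0839), and 1.26 with slide as a block. HCHIB, a basic chitinase of pathogen defence, gave -2.84, -1.97, -2.25 and -2.90 in wild-type control and 0.96, 0.48, 0.07 and 1.75 under stress. The transgenic line gave -3.56, -4.61 and -3.17, then 1.84, 1.81 and 1.41. The control arrays were apart, the stress arrays overlapped at wild-type replicate 4, and the difference was 2.16 (95% interval 0.94 to 3.39, adjusted p = 0.248), with 1.67 under the slide block.

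UGT73B2, a glucosyltransferase of flavonols, read -2.10, -2.65, -3.01 and -3.35 in wild-type control and -0.56, -1.49, -1.44 and -0.74 under stress. Its values in the transgenic line were -3.74, -3.73 and -3.98 and then -0.66, -0.998 and -0.71. Only the control arrays were apart, and the difference of responses was 1.31 (SE 0.40), with 1.49 under the slide block. UGT73B2, like HCHIB and ENODL1, was above background on only 1 control array of the line. The size of its rise there is therefore partly a bound. CYP710A1, the cytochrome P450 that turns sitosterol into stigmasterol, differed by 1.13 and by 1.18 with the slide block. EIF4A-2, an RNA helicase of translation initiation, differed by 1.06 and 1.04, and its 3 probes ran from 0.21 to 1.06. Its stress arrays were 3.56, 3.08, 2.67 and 3.85 in wild type and 4.33, 4.25 and 4.23 in the transgenic line, with no overlap, while its control arrays overlapped.

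SDR4, a member of the short-chain dehydrogenase family, had a response of 0.31 in wild type (adjusted p = 0.431) and rose by 1.96 in the transgenic line (adjusted p = 0.000528). That is a difference of 1.65 with all arrays and 1.69 with the slide block. ENODL1, an early nodulin-like protein of the plasma membrane, rose by 6.51 and 7.85, a difference of 1.34 and, with the slide block, 1.05. The adjusted p of the difference was 0.316 for SDR4 and 0.280 for ENODL1.

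**Figure D2:**
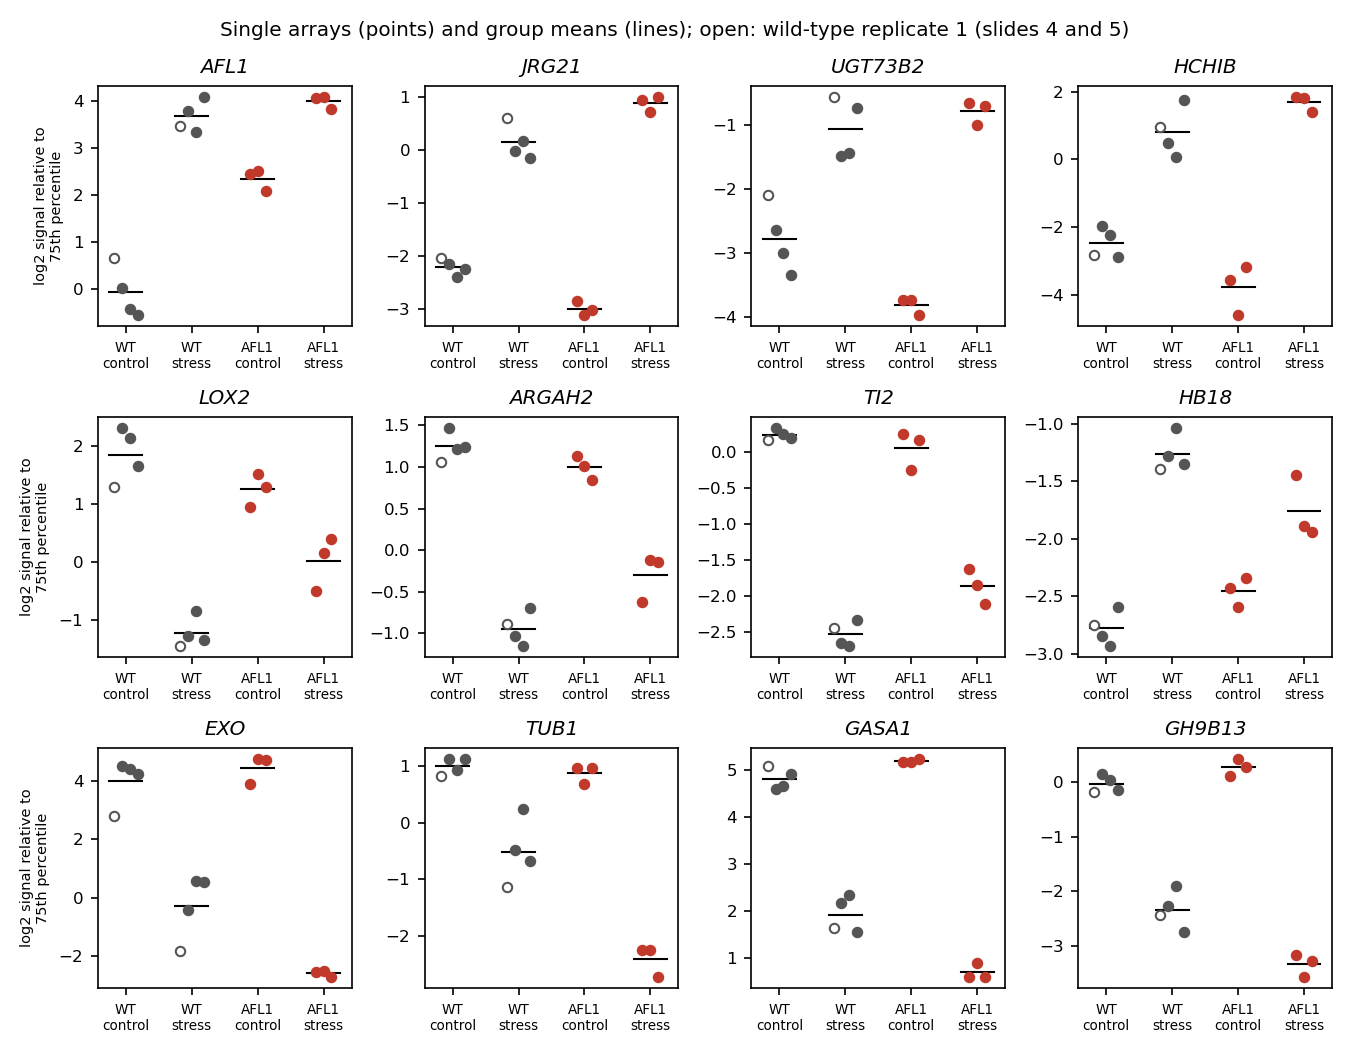
Log2 signal relative to the array's 75th percentile for 12 genes in every array. Points are arrays, lines are group means, grey marks wild type, red 35S:YFP-AFL1, and open points wild-type replicate 1 of slides 4 and 5. Genotypes do not overlap in control alone for AFL1, HCHIB and UGT73B2, and in both treatments for JRG21 and GASA1. For TUB1, EXO, GH9B13, LOX2, ARGAH2, TI2 and HB18 they do not overlap under stress alone.

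Few genes had a smaller rise under the same criteria. Beside AFL1 they were NAC073, a transcription factor of secondary cell walls, and HB18, a homeodomain-leucine zipper factor. NAC073 rose by 1.98 in wild type and 1.16 in the transgenic line, a difference of -0.83 (SE 0.26, adjusted p = 0.333), and -1.16 with the slide block. HB18 rose by 1.51 and 0.69, a difference of -0.82 (SE 0.21, adjusted p = 0.235), and -0.66 with the slide block.

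Among the deeper falls, 102 genes met the same criteria. Of these, 51 had a symbol, and the 7 with the largest difference were EXO, TUB1, FLA9, GASA1, GER1, sks4 and GH9B13. EXO (EXORDIUM) is an extracellular protein of brassinosteroid-dependent growth, TUB1 a beta-tubulin of microtubules, and FLA9 a fasciclin-like arabinogalactan protein. GASA1 is a gibberellin-regulated peptide, GER1 a germin-like protein, sks4 a relative of the growth gene SKU5, and GH9B13 an endoglucanase of the family that acts on cell-wall glucans.

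GASA1 had the smallest p of this group. It read 5.10, 4.61, 4.67 and 4.92 in the wild-type control arrays and 1.64, 2.18, 2.35 and 1.56 under stress, against 5.18, 5.19 and 5.25 and then 0.60, 0.90 and 0.59 in the transgenic line. Control arrays of the line lay above every wild-type control array, and its stress arrays lay below every wild-type stress array. The falls were -2.89 and -4.51, a difference of -1.61 (SE 0.27, 95% interval -2.20 to -1.03, adjusted p = 0.132), and -1.05 with the slide block. TUB1 read 0.82, 1.13, 0.93 and 1.12 in wild-type control and -1.13, -0.48, 0.24 and -0.68 under stress. The transgenic line read 0.97, 0.68 and 0.97, then -2.24, -2.25 and -2.73. Its control arrays overlapped, its stress arrays did not, and the difference was -1.77 (SE 0.36, adjusted p = 0.178), with -1.33 under the slide block.

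EXO had the largest difference of the named falls and also a wide spread in wild type. Wild-type control arrays were 2.81, 4.50, 4.40 and 4.23 and wild-type stress arrays were -1.82, -0.43, 0.56 and 0.55. Control arrays of the transgenic line were 3.89, 4.75 and 4.70 and its stress arrays -2.54, -2.50 and -2.73. Wild-type replicate 1 was the lowest wild-type array in both treatments. The difference was -2.76 (SE 0.76, adjusted p = 0.263), -2.40 with the slide block (adjusted p = 0.104) and -2.88 without the wild-type arrays of slides 4 and 5 (adjusted p = 0.00228).

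In the other 4 genes, too, the stress arrays of the transgenic line lay below every wild-type stress array. FLA9 read -1.38, -1.35 and -1.19 under stress in the line and -0.50, 0.38, 1.01 and 0.05 in wild type, a difference of responses of -1.62, with -0.88 under the slide block. GER1 read -3.37, -2.69 and -3.24 against -2.44, -1.43, -2.03 and -1.11, a difference of -1.45, with -0.80 under the slide block. GH9B13 read -3.17, -3.58 and -3.27 against -2.43, -2.28, -1.89 and -2.74, a difference of -1.31, with -1.35 under the slide block. For sks4 the difference was -1.35, with -0.68 under the slide block. Wild-type replicate 1 was the lowest of the wild-type stress arrays in FLA9, GER1 and sks4 and next to lowest in GH9B13.

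The shallower falls that met the criteria and had a symbol were LOX2, ARGAH2 and TI2. LOX2, the plastid lipoxygenase at the start of jasmonate synthesis, read 1.29, 2.31, 2.14 and 1.66 in wild-type control and -1.46, -1.27, -0.85 and -1.35 under stress. The line read 0.95, 1.51 and 1.296, then -0.50, 0.15 and 0.40. Stress arrays of the line lay above every wild-type stress array, and the difference was 1.84 (SE 0.38, 95% interval 1.02 to 2.66, adjusted p = 0.178), with 1.51 under the slide block. ARGAH2, a jasmonate-inducible arginase, had a response of -2.19 in wild type and -1.296 in the line, a difference of 0.90, with 0.65 under the slide block. TI2, a protease inhibitor, had responses of -2.78 and -1.92, a difference of 0.85, with 0.70 under the slide block.

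**Figure D3:**
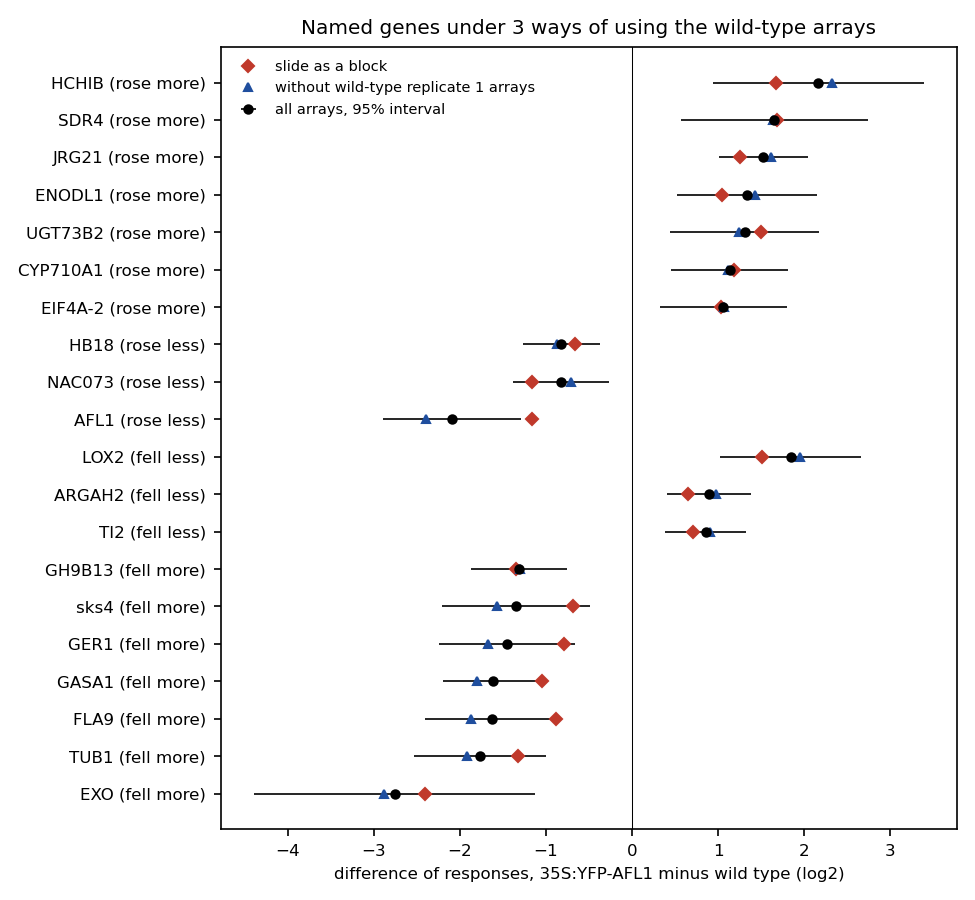
Difference of responses, 35S:YFP-AFL1 minus wild type (log2, x axis), for the genes named by class. Black points with 95% intervals use all arrays, and red diamonds have slide as a block and so rest on wild-type replicate 1. All of the diamonds lie on the same side of 0 as the black points, as the choice of genes required.

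The jasmonate list held the most members with the higher response in the transgenic line. It covers synthesis, repressors and target genes, and 9 of its 29 tested members had the higher response at an unadjusted p under 0.05 and 0 the lower, against 4.01% and 5.72% of all genes. The median difference was 0.41, and 0.09 with slide as a block. With that block 3 members were higher and 2 lower, where 1984 of 18308 genes passed that p over both directions. The mean level of the list was lower in the line in both treatments. It was -0.24 in wild type and -1.17 in the line in control, and 0.13 and -0.31 under stress. Wild-type replicate 1 had a list mean of -1.10 in control and -0.48 under stress. Of the synthesis genes, AOC1 differed by 1.05, AOC2 by 1.31 and LOX3 by 1.29, beside LOX2 above. AOC1 and AOC2 encode allene oxide cyclases and LOX3 a further lipoxygenase. With the slide block these were at 0.57, 0.30 and 0.45. LOX3, AOC2 and the other list members given beyond the 2 of smallest p were chosen after their values were seen.

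The jasmonate target genes VSP1 and VSP2, which encode vegetative storage proteins, had differences that shrank with the slide block. VSP2 read 0.54 in wild-type control replicate 1 and 2.74, 2.51 and 1.94 in the other wild-type control arrays, against 0.12, 1.09 and 0.76 in the transgenic line. Under stress it read 5.22 in wild-type replicate 1, 4.60, 3.90 and 4.75 in the others, and 5.39, 5.70 and 5.62 in the line. Replicate 1 lay among the arrays of the line in control and between the genotypes under stress. The difference was 2.22 with all arrays, 0.23 with the slide block and 2.89 without the wild-type arrays of slides 4 and 5. For VSP1 these values were 1.95, 0.22 and 2.53. CORI3 and NATA1, both induced by jasmonate, differed by 1.13 and 1.60, and by 0.30 and 1.88 with the slide block, NATA1 being above background on no control array. TAT3, a tyrosine aminotransferase, differed by 3.39, with 3.79 under the slide block, but was above background on no wild-type stress array and no control array of the line.

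In the other direction, 22 of the 23 tested genes of the cell cycle and DNA replication list had a negative difference of responses. The median difference over all genes was -0.01, and the share of negative differences over all genes was not counted. At an unadjusted p under 0.05, 0 of the list were higher and 6 lower, against 4.01% and 5.72% of all genes. The list median was -0.41, with -0.66 under the slide block and -0.33 without the wild-type arrays of slides 4 and 5. In control the mean level of the list ran from -0.70 to -0.48 in wild type and from -0.50 to -0.30 in the line. Under stress it ran from -2.24 to -1.88 and from -2.32 to -2.10. The list means thus overlapped between the genotypes in both treatments. CDKB2;1, a kinase of the passage into mitosis, read -2.84, -2.52, -2.49 and -2.90 in wild-type stress arrays and -3.41, -3.14 and -3.24 in those of the transgenic line, which did not overlap. It differed by -0.74 (SE 0.21, adjusted p = 0.284), with -0.71 under the slide block. The mitotic cyclins CYCB1;4, CYCB2;2 and CYCB1;2 differed by -1.08, -0.88 and -0.67, and by -0.77, -0.83 and -0.84 with the slide block. CYCA2;3 differed by -0.65 and CYCD3;1, a cyclin of the entry into the cycle, by -0.51, with -1.02 and -0.44 under the slide block. The probes of CYCA2;3 ran from -0.65 to -0.31. The exception among the 23 was MCM3, a subunit of the replication helicase, at 0.05.

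**Figure D4:**
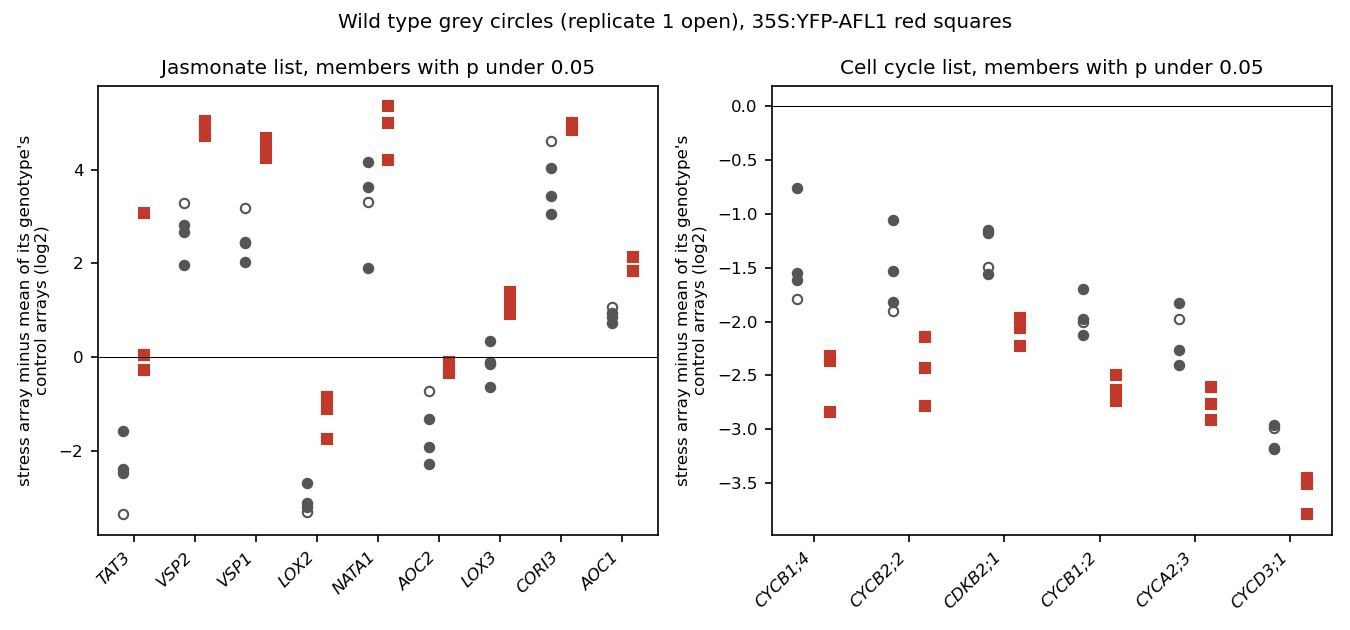
Single-array responses (stress array minus the mean of the control arrays of its genotype, log2) of the 9 jasmonate and 6 cell cycle genes with an unadjusted p under 0.05. Grey circles are wild type, open for replicate 1, and red squares are 35S:YFP-AFL1. In the cell cycle genes the red squares lie below the grey circles, and in the jasmonate genes above them. The choice of genes by the p of this same difference favours such a separation.

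The list of wall-loosening genes also had a negative median. Of 29 tested expansins, which loosen wall polymers, and xyloglucan endotransglucosylases (XTH), which cut and rejoin xyloglucan, 0 were higher and 8 lower, against 4.01% and 5.72% of all genes. The median was -0.49, and -0.46 both with the slide block and without the wild-type arrays of slides 4 and 5. EXPA11 had the smallest p, with stress arrays at -3.29, -2.71, -2.25 and -2.59 in wild type and at -4.35, -4.82 and -4.73 in the transgenic line, where none was above background. Its difference was -1.56 (SE 0.32, adjusted p = 0.178) and -1.03 with the slide block. EXPB3 differed by -0.93, XTH8 by -0.97, XTH4 by -0.66, EXPA14 by -1.17 and EXPA9 by -0.49, and all kept a negative sign with the slide block, at -0.46, -0.70, -0.60, -1.25 and -0.55. The probes of XTH4 ran from -0.66 to -0.098. EXPA8 and XTH15 differed by -1.99 and -1.29, with -0.84 and -0.71 under the slide block, but their probes disagreed in sign.

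The direction of the photosynthesis list depended on which wild-type arrays entered. Of 44 tested members 0 were higher and 10 lower, against 4.01% and 5.72% of all genes, with a median of -0.41 that became 0.11 with the slide block and -0.59 without the wild-type arrays of slides 4 and 5. LHCB2.3, a light-harvesting protein, read 5.66 in wild-type control replicate 1 and 4.34, 4.38 and 4.47 in the other wild-type control arrays. Under stress it read -3.11 in replicate 1 and 1.46, 2.35 and 1.46 in the others, against -2.59, -3.19 and -2.76 in the transgenic line. Replicate 1 lay with the line in both treatments, so that the difference was -4.28 with all arrays and 0.32 with the slide block. LHCB2.2 differed by -1.79, LHCA6 by -1.39, LHCB3 by -1.30 and NPQ4, a protein of energy dissipation, by -0.69, and with the slide block by -0.39, -0.31, 0.11 and -0.52. The probes of NPQ4 ran from -0.69 to -0.012. The LHCB2 genes are near-identical copies, so their probes may share signal.

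Clock, auxin and ABA receptor genes also differed in what the slide block left. Of 17 clock genes 1 was higher and 6 lower, against 4.01% and 5.72% of all genes, and the median of -0.08 became 0.25. LHY and RVE1, transcription factors that peak in the morning, differed by -1.0 and -1.60, and by 0.22 and 0.59 with the slide block. Of 14 auxin response genes 0 were higher and 3 lower, against the same shares of all genes, and the median of -0.31 became 0.12. IAA4 and IAA19, repressors induced by auxin, differed by -0.67 and -1.06, with -0.54 and -0.35 under the slide block, IAA19 being above background on no stress array of either genotype. Of 9 ABA receptor genes 0 were higher and 4 lower, against the same shares, with a median of -0.57, and -0.16 with the slide block. PYL5 and PYL4 differed by -0.76 and -1.05, and by -0.51 and -1.32 with the slide block, although PYL4 was above background on no stress array of the line.

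Genes of ABA synthesis and breakdown were divided, with 2 of 11 higher, 4 lower and a median of -0.06, against 4.01% and 5.72% of all genes. The slide block gave 0 higher, 1 lower and a median of 0.15. With that block 1984 of 18308 genes had an unadjusted p under 0.05 over both directions. NCED3, the dioxygenase at the rate-limiting step of ABA synthesis under drought, read -2.38 in wild-type control replicate 1, -1.26, -1.26 and -1.64 in the other wild-type control arrays, and -2.42, -2.85 and -2.96 in the transgenic line. Under stress it read 4.82, 4.59, 4.35 and 4.62 in wild type and 5.04, 4.87 and 4.67 in the line. The rise was 6.23 in wild type and 7.60 in the line, a difference of 1.37 that was 0.40 with the slide block, and the stress arrays overlapped. ABA2, a later enzyme of the pathway, rose by 0.44 in wild type and had a response of -0.32 in the line (adjusted p = 0.0279 and 0.155), a difference of -0.76, with -0.51 under the slide block.

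Dehydration proteins protect membranes and other proteins as water is lost. Of 25 tested dehydration proteins 2 were higher and 0 lower, with a median of 0.37, and all genes were higher in 4.01%. The slide block gave 2 higher, 2 lower and a median of 0.31, where 1984 of 18308 genes passed that p over both directions. The median response of the list was 4.31 in wild type and 4.33 in the transgenic line. The dehydrins XERO2 and XERO1 differed by 1.12 and 0.52, with 0.68 and 0.41 under the slide block. Among 24 drought and ABA transcription factors 2 were higher and 0 lower, against 4.01% and 5.72% of all genes, and the median was 0.17. NAC019 differed by 1.02 (adjusted p = 0.263), with 0.71 under the slide block, and ABF2 by 0.48, with 0.32 under the slide block and probes that disagreed in sign. Of 9 phosphatases of the ABA receptor complex 1 was higher and 0 lower, against the same shares, with a median of 0.14. HAI1 of this list rose by 7.64 and 8.26, a difference of 0.63, with 0.85 under the slide block.

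Proline genes serve the solute that accumulates at low water potential. Of 10 members 1 was higher and 0 lower, against 4.01% and 5.72% of all genes, and the median was 0.19. P5CS1, the enzyme that commits glutamate to proline, rose by 4.83 in wild type and 4.42 in the transgenic line, a difference of -0.41 (95% interval -0.96 to 0.14), with -0.12 under the slide block. P5CDH, of proline breakdown, differed by 0.46, with 0.06 under the slide block. ERD5, the proline dehydrogenase, differed by 0.80 (95% interval -0.43 to 2.02), and by -0.76 with the slide block. The probes of P5CS1 and of ERD5 disagreed in sign.

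Heat shock genes had 4 of 20 members higher and 0 lower, against 4.01% and 5.72% of all genes, with a median of 0.40, 0.51 with the slide block and 0.28 without the wild-type arrays of slides 4 and 5. They encode chaperones that keep proteins from aggregating. HSP17.6A read 2.73, 2.51, 2.02 and 2.43 in the wild-type stress arrays and 3.73, 3.65 and 3.23 in those of the transgenic line, with no overlap. Its difference was 1.79 (SE 0.41, adjusted p = 0.200), with 0.87 under the slide block, and it was above background on no control array of the line. HSP17.4 differed by 1.21, with 1.18 under the slide block, and HSP17.6II by 1.57, with 0.26.

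Of 18 flavonoid and anthocyanin genes 3 were higher and 0 lower, against 4.01% and 5.72% of all genes. The median of 0.44 became 0.02 with the slide block. PAP2, a MYB factor of anthocyanin synthesis, differed by 2.24 and by 0.54 with the slide block, but was above background on no control array. Among 15 lipid transfer and cuticle genes 4 were higher and 0 lower, against the same shares. The median was 0.41, with 0.14 under the slide block. AZI1, a lipid transfer-like protein of systemic immunity, differed by 1.99 with all arrays and 1.67 with the slide block, and was above background on no wild-type stress array.

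Early touch and wound genes are a list of transcription factors and signalling genes that answer touch or wounding quickly. They had the lowest median of the lists, at -0.93. Yet 0 of 13 members passed an unadjusted p under 0.05 in either direction, against 4.01% higher and 5.72% lower of all genes. With the slide block the median was -1.39 and 6 members were lower, where 1984 of 18308 genes passed that p over both directions. ERF104 read 0.33 in wild-type control replicate 1 and 2.64, 2.63 and 2.27 in the other wild-type control arrays, and -2.47 in wild-type stress replicate 1 and 0.96, 2.32 and 0.90 in the others. The line read 1.56, 1.93 and 2.04 in control and -2.84, -2.19 and -2.01 under stress. Replicate 1 was thus low in both treatments, and the difference was -2.65 (95% interval -5.31 to 0.01). The mean level of the list ran from -0.90 to 2.13 over the wild-type stress arrays and from -1.15 to -1.02 over those of the line, and was -0.90 in wild-type replicate 1. In control it ran from -0.32 to 2.72 in wild type and from 0.44 to 1.17 in the line. Wild-type control replicate 1 had the -0.32.

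The remaining lists are read against 4.01% of all genes higher and 5.72% lower. Their counts with the slide block are read against 1984 of 18308 genes over both directions. Aquaporins, which conduct water through membranes, had 0 of 19 higher, 2 lower and a median of -0.26, with 0.01 under the slide block. PIP2;1 and TIP1;2 differed by -0.88 and -1.08, with -0.21 and -0.33 under the slide block. The probes of PIP2;1 ran from -0.88 to -0.065 and those of TIP1;2 from -1.08 to -0.33. The salicylate defence list had 0 of 12 higher, 2 lower and a median of 0.11, and the slide block gave 1 higher, 2 lower and a median of -0.29. PAD4 and PR5 differed by -1.14 and -1.25, with -0.34 and -2.47 under the slide block. PAD4 was above background on no stress array of the line and its probes differed in sign. Glucosinolate genes had 2 of 26 higher, 0 lower and a median of 0.10, whereas the slide block gave 0 higher, 5 lower and a median of -0.16. BCAT4 and CYP83A1 differed by 1.02 and 1.83, with 0.27 and -0.006 under the slide block.

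Senescence genes had 0 of 14 higher, 1 lower and a median of -0.22, whereas the slide block gave 4 higher, 0 lower and a median of 0.14. DIN10 differed by -1.78, with -0.49 under the slide block, and its 7 probes ran from -1.78 to -0.21. Raffinose and sugar genes had 2 of 9 higher, 1 lower and a median of 0.16, with 0.13 under the slide block. SUS3, a sucrose synthase, differed by 0.64 and ERD6, a sugar transporter, by -1.91, with 0.47 and -2.20 under the slide block. The ER folding list had 1 of 15 higher, 1 lower and a median of 0.04, and the slide block gave 0 higher, 5 lower and a median of -0.32. The list of ER bodies and lectins had 2 of 15 higher, 2 lower and a median of -0.22, and the slide block gave 0 in either direction and a median of -0.19. Iron homeostasis genes had 0 of 9 higher, 1 lower and a median of -0.08, with 0.15 under the slide block. A response that starts or ends below background has only a bound. This held under stress in the line for EXPA8, EXPA14, CYCB2;2, ERD6, HBI1 and ROXY1, on its control arrays for HAI1, HSP17.6II and MSL4, and on all control arrays for HSP21. It held in part for HCHIB, UGT73B2, ENODL1 and NAC073, above background on 1 control array of the line. The same went for sks4, above background on 1 stress array of the line.

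**Figure D5:**
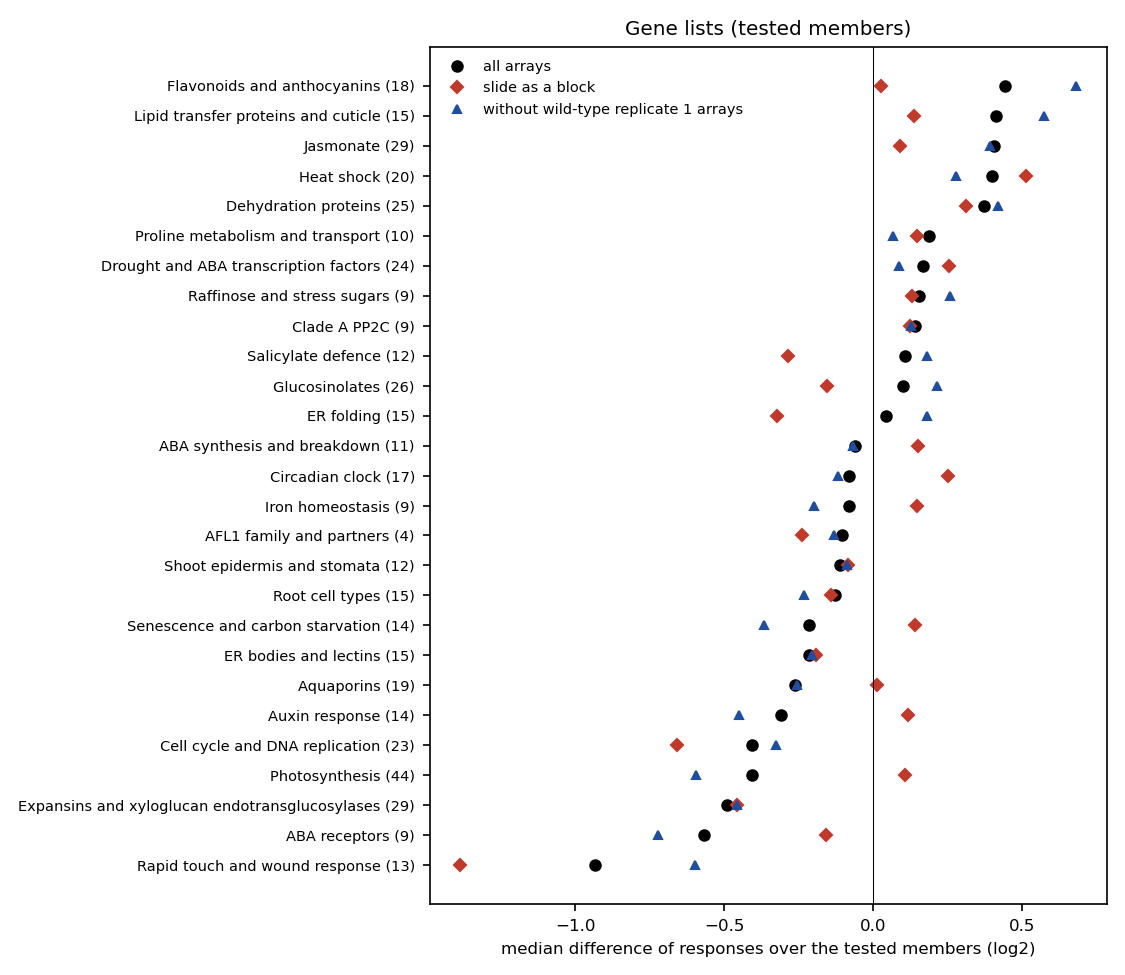
Median difference of responses (log2, x axis) for each gene list, with the number of genes tested in brackets. Black points use all arrays, red diamonds have slide as a block. The slide block moves the medians of 10 lists to the other side of 0: photosynthesis, auxin, clock, ABA synthesis, glucosinolates, salicylate, aquaporins, senescence, ER folding and iron.

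Markers of root and shoot cell types were present in every group, as the label whole seedling requires. Of 15 root cell markers 1 was higher and 1 lower, with a median difference of -0.13, against 4.01% and 5.72% of all genes. Of 12 tested markers of shoot epidermis and stomata 0 were higher and 1 lower, with a median of -0.11. The mean level of the root list ran from -1.56 to -1.07 over wild-type control arrays and from -2.35 to -1.87 over control arrays of the transgenic line, and from -1.98 to -1.12 and -2.67 to -2.17 under stress. The root list thus lay lower in the line in both treatments, and its part in the differences was not tested. CASP2, which builds the Casparian strip of the root endodermis, had the largest difference of its list. It read -0.003, 0.64, 0.35 and 0.32 in wild-type control and 0.65, 0.11, 0.46 and 0.40 under stress. In the line it read -0.39, -0.79 and -0.82, then 1.01, 0.89 and 1.32. The difference was 1.66 (SE 0.25, adjusted p = 0.0839), with 1.08 under the slide block, and no array of the line overlapped wild type in either treatment. WER, a regulator of root epidermis, differed by -1.07, and PDF1 of the shoot epidermis by -0.57, with -1.01 and -0.39 under the slide block, the latter with probes of differing sign.

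In 3 genes the responses passed the adjusted threshold in opposite directions, and 2 of these had a symbol. EARLI1, a lipid transfer-like protein of the cell wall, had a response of -1.34 in wild type (adjusted p = 0.0274) and of 1.82 in the line (adjusted p = 0.0120), a difference of 3.15 (adjusted p = 0.200). It was above background on no wild-type stress array and no control array of the line, and its difference was 0.80 with the slide block. CYP716A2, a cytochrome P450 of triterpene oxidation, read -2.91, -2.02, -2.17 and -2.86 in wild-type control, -2.58, -3.27, -3.19 and -3.34 under stress, and -3.57, -3.80 and -3.72 and then -2.98, -2.65 and -2.44 in the line. Its response was -0.60 in wild type and 1.01 in the line, a difference of 1.61 (adjusted p = 0.178), with 0.67 under the slide block. Wild-type stress replicate 1 lay among the stress arrays of the line.

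Under the slide block 20 genes passed the adjusted threshold, 14 higher (0.0765%) and 6 lower (0.0328%). Each of these values compares the line with wild-type replicate 1 alone. CSLG2, a cellulose synthase-like protein, read -3.90 in wild-type control replicate 1 and -6.20, -6.32 and -6.67 in the others, against -6.16, -6.14 and -6.13 in the line, and was above background on no control array. Its difference was 2.44 with the slide block (adjusted p = 0.00700) and 0.79 with all arrays. HSP21, a plastid chaperone, read -0.48 in wild-type stress replicate 1, 1.23, 0.58 and 1.18 in the others and 1.76, 2.04 and 1.98 in the line, a difference of 2.61 with the slide block and 1.12 with all arrays. MSL4, a mechanosensitive channel-like protein, and Hsp70b, a chaperone, differed by 2.66 and 2.75 with the slide block and by 2.12 and 1.81 with all arrays. For PLA-I{gamma}1, a plastid lipase, these values were 2.95 and 1.48, and its probes ran from 0.54 to 1.48 with all arrays.

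Among the 6 lower, HBI1, a transcription factor of growth, read -3.36 in wild-type stress replicate 1 and -6.69, -5.96 and -6.26 in the other wild-type arrays, against -6.49, -5.88 and -6.19 in the line. Its difference was -2.80 with the slide block and -1.14 with all arrays. NP2, a protein kinase, differed by -3.71 and -1.62, and ROXY1, a glutaredoxin, by -3.24 and -1.25. Without the wild-type arrays of slides 4 and 5 the differences of HBI1, NP2 and ROXY1 were -0.58, -0.92 and -0.58.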

How the data were processed

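Total RNA of whole seedlings was hybridised to single-colour Agilent arrays, 1 per sample. Per the file headers, the authors' intensity values are processed signals from Agilent Feature Extraction 10.7.1.1, background-subtracted within each array and on a linear scale. The deposited value table held the same intensity values, to within a relative difference of 0.0006, with no centring, and column medians from 137.8 to 288.5.

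Here log2 of the signal was taken minus each array's 75th percentile. Spots with an outlier mark were dropped if their probe had another spot. Probes were named by accession through the TAIR10.1 gene table (34358 of 43603 matched, 9245 not), the brightest of a gene's probes stood for it, and 29099 probes were kept, those well above background in a group on 3 arrays or more. The 18308 genes were fitted with limma 3.58.1 in R 4.3.3 as 4 group means sharing 1 spread. Benjamini-Hochberg adjustment ran over all genes. Every adjusted p in the text is from limma. The fit was tested on simulated data, with the same spread in every array of a gene. It recovered 41 of 100 planted differences of size 1 and 80 of 100 of size 2 on the log2 scale, with 6 false calls. The number of arrays limits the precision.

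The file headers give slide and scan day: slides 1 and 2 were scanned on day 1, slides 3 to 5 on day 2. Of the wild-type arrays outside slides 4 and 5, control replicates 2 and 3 shared slide 1, control replicate 4 and stress replicate 2 shared slide 2, and stress replicates 3 and 4 shared slide 3.

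Genes named are AFL1, AT14A and 2 partners; up to 7 per class of larger or smaller rise or fall with a symbol, by the criteria given; up to 2 per list with the smallest unadjusted p under 0.05; up to 4 with opposite responses; and up to 5 in each direction with slide as a block. Others are said to be chosen after their values were seen: these are TAT3, VSP1, VSP2, LOX3, AOC2, CORI3, NATA1, CYCB1;2, CYCB2;2, CYCD3;1, CYCA2;3, MCM3, EXPA8, EXPA9, EXPA14, XTH4, XTH8, XTH15, ERF104, LHCA6, LHCB2.3, LHCB3, HSP17.6II, P5CS1 and ERD5. The members and lists were chosen with earlier results of these data known, and lists were not tested as sets. Roles of genes are background knowledge.

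Alternatives covered background correction (normexp, offset 50, on median spot signals, since the files carry no mean signal), normalization, filters, probes, the deposited table, array weights, slide, scan day and each replicate left out. Analyses of slides 4 and 5 alone and without their wild-type arrays were added after seeing the data. Promoter motifs and sequences were not analysed here.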

Additional observations from a re-analysis of the deposited data

Results flagged for a closer look

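In groups of 4 arrays, a wild-type array stood apart from its group in 15 of the 204 groups of named genes. Of these 15, 14 were wild-type replicate 1. Chance gives about 5% for genes picked without regard to their values. Some of these genes were named from the slide block, which rests on replicate 1, or after their values were seen. The count is therefore not compared with that share. In control, replicate 1 stood apart in EXO (2.81), EXPB3 (1.54), ERD6 (0.28), LHY (-0.90), PLA-I{gamma}1 (-0.84), CSLG2 (-3.90), ERF104 (0.33), LHCB2.3 (5.66) and ERD5 (1.21). Under stress it stood apart in AT14A (-2.16), SUS3 (5.53), LHY (-0.74), RVE1 (-1.35) and LHCB2.3 (-3.11). The remaining case was wild-type stress replicate 3 in EXPA9 (1.07). These are log2 levels relative to the array's 75th percentile. Replicate 1 was the wild-type array on slides 4 and 5, and the part of the slide in these values cannot be told apart from that of the replicate.

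In 4 named genes every stress array of wild type moved one way and every stress array of 35S:YFP-AFL1 the other, each taken against its genotype's control mean. The share over all genes was not counted. EARLI1 and CYP716A2 were named for opposite responses without overlap, which favours this pattern. In PLA-I{gamma}1 wild-type control replicate 1 raised the control mean, at -0.84 against -3.28, -3.30 and -3.48 in the others. The differences of responses were -0.76 for ABA2, 3.15 for EARLI1, 1.61 for CYP716A2 and 1.48 for PLA-I{gamma}1, and none passed the adjusted threshold in limma.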

How the results depend on the processing

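The count of genes past the adjusted threshold was 0 with normexp correction, quantile normalization, median centring, other filters, mean probes, the deposited table, an intensity trend, scan day as a block and slide as a random block. It was 20 with slide as a fixed block, 11 in scan day 2 alone, 1237 with array weights, 23 in slides 4 and 5 alone and 1173 without the wild-type arrays of those slides. Leaving out single arrays gave 0 to 754, and 1288 to 3526 at an unadjusted p under 0.05. The latter count was 1105 with the random slide block, 4486 with array weights and 3989 without the wild-type arrays of slides 4 and 5.

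In the order larger rise, smaller rise, deeper fall, shallower fall, the counts were 674, 150, 1176 and 225 with array weights and 611, 151, 1103 and 184 without the wild-type arrays of slides 4 and 5. With the random slide block the first 3 were 231, 21 and 395. Deeper falls were 383 in scan day 2 alone, and shallower falls 142 with the fixed slide block and 167 in slides 4 and 5 alone. Leaving out single arrays gave 266 to 545, 31 to 95, 460 to 1048 and 38 to 153. The lowest count of shallower falls came without 35S:YFP-AFL1 control replicate 2, and the highest of all 4 classes without wild-type stress replicate 1. With the fixed slide block the response of 35S:YFP-AFL1 held 6565 genes and the common response 8407, and in scan day 2 alone that of wild type held 7683.

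AFL1 passed the threshold with array weights (-2.19), without the wild-type arrays of slides 4 and 5 (-2.40), without wild-type control replicate 1 (-2.33) and without wild-type stress replicate 1 (-2.16). Leaving out single arrays gave -2.33 to -1.93, and its adjusted p over all alternatives ran from 0.00127 to 0.549. Of the 102 named genes 10 changed sign with the fixed slide block and in slides 4 and 5 alone: AT14A (0.39), PDIL1-1 (-0.029), NAI2 (-0.45), CYP83A1 (-0.00586), BZIP28 (-0.043), LHY (0.22), RVE1 (0.59), LHCB2.3 (0.32), LHCB3 (0.11) and ERD5 (-0.76). ERD5 was also at -0.72 in scan day 2 alone and NAI2 at -0.00444 with mean probes. Genes named by class had to keep their sign with the fixed slide block, and some others were named from it. The count of 10 is therefore no measure of how stable the named genes are. The causes were not tested.

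Replicate numbers are shared by control and stress, but same-numbered samples did not deviate together throughout: the correlation of their deviations was 0.397, -0.007, 0.193 and -0.117 in wild type and 0.148, 0.021 and 0.071 in 35S:YFP-AFL1. With the replicate block 0 genes passed the threshold and 1797 had an unadjusted p under 0.05.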
